A study of Mus musculus with 6 samples.

Results

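The nuclear genes that make the mitochondrial ribosome and express mitochondrial DNA (mtDNA) were examined in the cervical spinal cord of mice treated with imiquimod on the skin of the neck. The 90 genes were chosen by name and not by a cutoff on any measured value, though earlier results of these data were known. They are the 49 Mrpl genes and 29 Mrps genes, which are named for the large and the small subunit of the mitochondrial ribosome, and 12 other genes (Tfam, Tfb1m, Tfb2m, Polrmt, Polg, Polg2, Twnk, Lrpprc, Slirp, Mterf1a, Pnpt1 and Ppargc1a). The deposited values cover 54532 genes. Of the 90 genes, 89 passed the filter on low values, and Mrpl53 was listed at 0 FPKM in every library.

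Mitochondria keep a small circular genome that encodes ribosomal RNAs (rRNAs), transfer RNAs and a few subunits of the respiratory chain and ATP synthase. Every protein of the mitochondrial ribosome is encoded in the nucleus, made in the cytosol and imported, and the ribosome then translates only the mtDNA-encoded mRNAs. The polymerase Polrmt transcribes mtDNA with Tfam and Tfb2m, the polymerase Polg copies it behind the helicase Twnk, and the RNA-binding proteins Lrpprc and Slirp keep its mRNAs stable. Neurons and glia of the cord depend on this system for oxidative energy supply.

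Both groups were C57BL/6 mice. The imiquimod group of 3 mice had 50 mg of a 5% cream of imiquimod, which activates Toll-like receptor 7, put on the shaved nape daily on 2 days to give a psoriasis-like dermatitis. The vehicle group of 3 mice had the same amount of cream without the drug on the same schedule. Whole cervical cord was taken, with 1 RNA-seq library per mouse, and the labels call the libraries biological replicates, so the spread within a group is taken here as a spread between mice. The sources used here give neither age nor sex. In bulk tissue, fewer cells of a type and less RNA per cell cannot be told apart.

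Values are FPKM, fragments per kilobase of exon, scaled per library to a depth that tracked size factors rather than the total of fragments. The fragments recovered from them numbered 21238806 to 23196686 per imiquimod library and 18172205 to 20670335 per vehicle library. The limma test on log2(FPKM + 0.1) covered 16513 genes, of which 1444 were higher and 882 lower in imiquimod cords at a Benjamini-Hochberg adjusted p under 0.05, so 62.1% of the calls were higher, but 50.9% were (1335 higher, 1287 lower) after quantile normalization. Markers of neurons, astrocytes and oligodendrocytes and all 6 cervical Hox genes were expressed in every library, while the markers of skeletal muscle and fat summed to at most 2.95 FPKM. Imiquimod replicate 1 stood apart on the genes described here, as given below, and results that rest on it are given with and without it. Imiquimod replicate 3 stood apart on Gapdh, at 26.4 FPKM against 1.56 to 2.15 FPKM in the other libraries.

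The mitochondrial expression genes changed little after imiquimod. Of the 89 tested, 6 were higher and none was lower in imiquimod cords. The 6 were Slirp and Pnpt1, which act on mitochondrial RNA, and the ribosomal proteins Mrpl2, Mrpl27, Mrpl38 and Mrps18c. The exons of Slirp are nearly all shared with other genes, as given below. The 6 make up 6.74% of those tested, against 8.74% higher among all genes tested, and no member was lower, against 5.34% of all genes. At an unadjusted limma p under 0.05, 12 members were higher (13.5%, against 16.3% of all genes) and 1, Tfb1m, was lower (against 13.9% of all genes). With voom on the recovered fragments, 7 passed as higher and 0 as lower at the adjusted threshold, against 9.11% higher and 6.57% lower among the 16493 genes in that fit.

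The log2 changes of the 89 genes ran from -0.34 to 0.76 with a median of 0.06, beside a median of -0.01 over all genes tested. No member changed by as much as 1 on the log2 scale, as 1194 of all genes did. Of the members, 62 had a positive and 27 a negative change (30.3% negative, against 50.9% of all genes). Without imiquimod replicate 1 the median change of the members was -0.01. The 95% confidence interval of the change lay within 1.5-fold in either direction for 82 of 89 members (92.1%), against 59.5% of all genes. The 7 members with wider reach were Pnpt1, Slirp, Mrpl27, Mrps18c, Tfb1m, Mrps30 and Mterf1a. Every imiquimod library lay above every vehicle library in 20 members (22.5%, against 19.8% of all genes), and below in 4 (4.49%, against 18% of all genes), which were Tfb1m, Mrps36, Mrpl3 and Mrpl16. Together 24 members had groups that did not overlap, as did 37.9% of all genes. The count of higher members depended on single libraries: it was 3 without imiquimod replicate 1, 1 without vehicle replicate 1, 2 without vehicle replicate 2 and 3 without vehicle replicate 3. The count over all genes fell too, from 1444 higher to 923, 660, 770 and 758 in these settings.

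**Figure D1:**
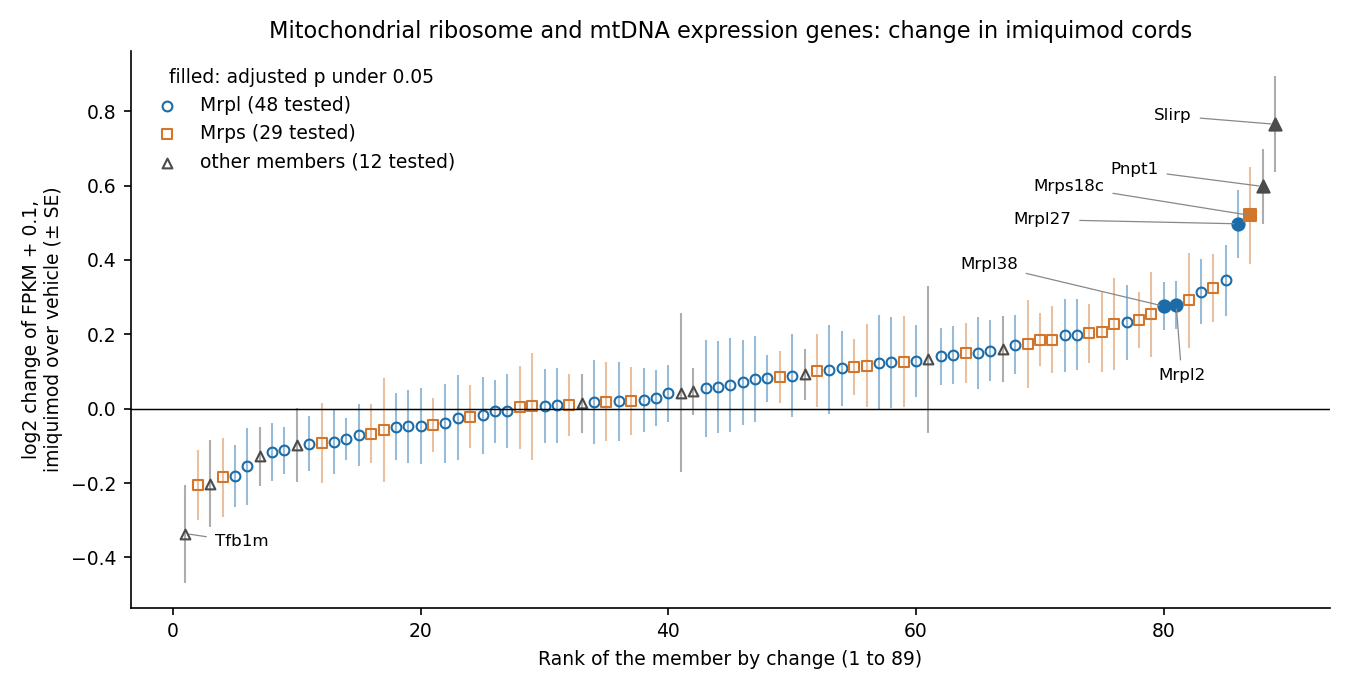
Log2 change of FPKM + 0.1 (imiquimod over vehicle, ± SE from limma) for the 89 members tested, ordered by change and marked by kind, with filled symbols for an adjusted p under 0.05. The 6 filled points lie between 0.28 and 0.76, and most of the open points lie near 0.

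The promoters of the changed genes are shown because ETS and NRF1 motifs are known features of mitochondrial gene promoters, and the interferon response element is one of interferon-induced genes. The windows run from 250 bases before to 50 bases after the RefSeq gene start on build GRCm38.p6 and are written 5′ to 3′ on the gene's strand, which is the plus strand for all 4 genes. They are Pnpt1 at chr11:29130494-29130793, Slirp at chr12:87443646-87443945, Mrpl27 at chr11:94653541-94653840 and Mrps18c at chr5:100798509-100798808. Capitals mark the ETS motif CCGGAAG or its reverse complement and the interferon-stimulated response element, searched as GAAA followed after any 2 bases by GAAA, each on either strand.
Pnpt1: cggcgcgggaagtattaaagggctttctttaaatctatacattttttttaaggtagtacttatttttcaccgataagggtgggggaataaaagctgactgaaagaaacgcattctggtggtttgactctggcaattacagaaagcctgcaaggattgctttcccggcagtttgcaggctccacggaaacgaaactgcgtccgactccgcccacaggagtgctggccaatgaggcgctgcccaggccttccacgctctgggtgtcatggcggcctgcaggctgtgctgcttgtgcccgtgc
Slirp: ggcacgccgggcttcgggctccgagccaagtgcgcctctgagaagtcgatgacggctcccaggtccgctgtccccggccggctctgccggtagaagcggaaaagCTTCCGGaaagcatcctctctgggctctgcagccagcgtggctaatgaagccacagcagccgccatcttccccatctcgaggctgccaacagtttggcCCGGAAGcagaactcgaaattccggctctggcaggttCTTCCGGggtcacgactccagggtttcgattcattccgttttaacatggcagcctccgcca
Mrpl27: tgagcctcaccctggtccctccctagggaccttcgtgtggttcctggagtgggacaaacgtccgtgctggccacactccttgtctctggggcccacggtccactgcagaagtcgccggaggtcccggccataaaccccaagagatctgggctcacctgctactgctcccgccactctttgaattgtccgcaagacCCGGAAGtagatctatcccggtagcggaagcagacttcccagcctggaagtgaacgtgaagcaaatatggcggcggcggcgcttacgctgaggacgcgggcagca
Mrps18c: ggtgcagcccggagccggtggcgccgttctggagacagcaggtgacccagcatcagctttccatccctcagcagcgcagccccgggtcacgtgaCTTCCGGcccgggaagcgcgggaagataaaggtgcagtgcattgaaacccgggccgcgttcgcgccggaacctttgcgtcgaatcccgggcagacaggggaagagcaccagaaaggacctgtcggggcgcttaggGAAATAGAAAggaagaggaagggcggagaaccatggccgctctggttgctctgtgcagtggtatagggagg

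Slirp held 3 ETS matches, Mrpl27 1, Mrps18c 1 ETS match and 1 interferon response element, and Pnpt1 none of the motifs searched. No match overlapped another in these windows. Of the other changed genes, Mrpl2 had no match and Mrpl38 had no window in the table used. Of the 90 members 81 had a window. The ETS motif was present in 33 of the 81 (40.7%), against 9.93% of all 27025 promoters and 13.4% of 16514 protein-coding ones. The perfect palindrome of the NRF1 site was present in 3 (3.7%, in Mrpl9, Mrpl32 and Mrpl39), against 1.07% of all promoters, and the interferon response element in 3 (3.7%, in Mrpl20, Mrps18c and Mrps21), against 3.99%. The promoters of Twnk and Mrpl43 overlap on opposite strands, so their ETS matches are shared in part. Matches are a description of these letters and show neither binding nor its absence.

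The largest changes among the members were those of Slirp and Pnpt1, 2 of the 3 genes of mitochondrial RNA stability and decay. The third, Lrpprc, did not change, and the reads of Slirp cannot be told from those of its neighbours, as given below. Pnpt1 (chr11:29130744-29161828, plus strand, GRCm38), a polynucleotide phosphorylase that degrades and processes RNA inside mitochondria and is known in human cells as an interferon-induced gene, stood at 10.3, 8.14 and 8.44 FPKM in imiquimod cords and at 5.80, 6.10 and 5.66 FPKM in vehicle cords. The groups did not overlap, and the lowest imiquimod mouse was well above the highest vehicle mouse. Pnpt1 averaged 8.95 ± 1.2 FPKM in imiquimod cords and 5.85 ± 0.227 FPKM in vehicle cords (SD, n = 3 each), a log2 change of 0.60 ± 0.10 (SE, limma adjusted p = 0.0119). Its call was kept in 15 of 17 alternative settings and was lost without vehicle replicate 1 (limma adjusted p = 0.054) or without vehicle replicate 3 (limma adjusted p = 0.0526).

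Slirp (chr12:87443896-87452206, plus strand), the small partner of Lrpprc that protects mitochondrial mRNAs from decay, stood at 2.09, 2.10 and 2.09 FPKM in imiquimod cords and at 1.27, 1.02 and 1.30 FPKM in vehicle cords. The imiquimod mice were nearly equal and all lay above the vehicle mice. The log2 change was 0.76 ± 0.13 (limma adjusted p = 0.0123), and the call was kept in all 17 alternative settings. The values rest on few fragments, 134, 146 and 152 in imiquimod libraries and 70, 55 and 79 in vehicle libraries. Of the exon bases of Slirp, 97.8% are also covered by the exons of Snw1 and Alkbh1 on the other strand, and the sources used here do not say whether counting used strand, so the reads of Slirp cannot be told from those of its neighbours. Snw1, a splicing factor, was itself higher by 0.27 ± 0.07 (limma adjusted p = 0.0436).

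Lrpprc did not pass the test. This pentatricopeptide repeat protein, which holds mitochondrial mRNAs in a stable and translatable form, stood at 8.83, 9.58 and 8.20 FPKM in imiquimod cords and at 9.23, 8.62 and 8.47 FPKM in vehicle cords. The groups overlapped, with a log2 change of 0.01 and a 95% interval of -0.17 to 0.20, and its sign turned with the scaling, to -0.04 with each library centred on its median and to -0.03 after quantile normalization. The difference between the changes of Slirp and Lrpprc was not tested.

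**Figure D2:**
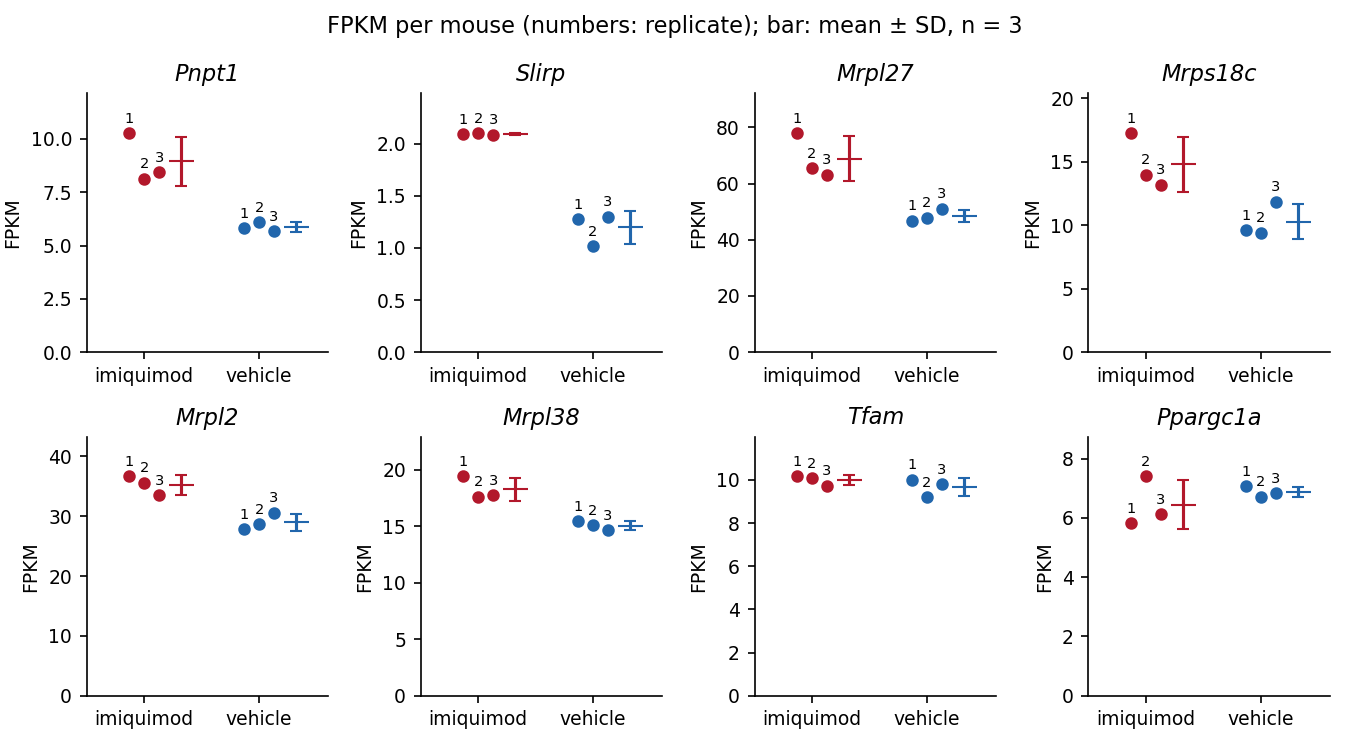
FPKM in each mouse, numbered by replicate, with the group mean ± SD (n = 3) beside the points, for the 6 genes that passed the test and for Tfam and Ppargc1a. In the 6 genes the imiquimod points lie above the vehicle points, while in Tfam and Ppargc1a the groups overlap.

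Of the 48 Mrpl genes tested, named for the large subunit of the mitochondrial ribosome, 3 were higher (6.25%, against 8.74% of all genes). The median log2 change of the 48 was 0.06, or -0.03 without imiquimod replicate 1. Mrpl27 (chr11:94653767-94660089, plus strand), the counterpart of the bacterial protein L27 at the peptidyl transferase centre, stood at 78.0, 65.4 and 63.2 FPKM in imiquimod cords and at 46.9, 47.9 and 51.0 FPKM in vehicle cords. All imiquimod mice were above all vehicle mice, with replicate 1 the highest. Its log2 change was 0.50 ± 0.09 (limma adjusted p = 0.0165), with the call kept in 15 of 17 settings and lost without vehicle replicate 1 (limma adjusted p = 0.077) or 2 (limma adjusted p = 0.0665).

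Mrpl38 (chr11:116131817-116138868, minus strand), a protein of the large subunit with no bacterial counterpart, stood at 19.4, 17.6 and 17.8 FPKM in imiquimod cords and at 15.5, 15.1 and 14.6 FPKM in vehicle cords. It rose by 0.28 ± 0.06 (limma adjusted p = 0.0338). Mrpl2 (chr17:46646229-46650139, plus strand), the counterpart of the bacterial protein L2, stood at 36.6, 35.6 and 33.5 FPKM in imiquimod cords and at 27.8, 28.7 and 30.6 FPKM in vehicle cords. It rose by 0.28 ± 0.07 (limma adjusted p = 0.0349). In both genes the groups did not overlap and every mouse of a group lay close to the others, yet each call was kept in only 7 of 17 settings. Leaving out 1 library put the limma adjusted p of Mrpl38 at 0.0519 without imiquimod replicate 1, at 0.0666 without imiquimod replicate 3 and at 0.105, 0.112 and 0.123 without vehicle replicates 1, 2 and 3. For Mrpl2 the limma adjusted p was 0.0667 without imiquimod replicate 1, 0.0555 without imiquimod replicate 2 and 0.147, 0.123 and 0.07 without vehicle replicates 1, 2 and 3. Removing the dependence of each library on gene length and GC put it at 0.0746 for Mrpl38 and 0.0637 for Mrpl2. With no filter on low values it was 0.0508 for Mrpl38 and 0.0555 for Mrpl2, and with each library centred on its median 0.0968 for Mrpl38 and 0.104 for Mrpl2.

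The remaining large-subunit genes showed no change that passed. By origin, 2 of 30 proteins with a bacterial counterpart were higher (6.67%) and 1 of 19 without one was (5.26%), against 8.74% of all genes. That count without a bacterial counterpart includes Mrps30, which sits in the large subunit of the mammalian ribosome despite its symbol, at 2.52, 2.13 and 2.24 FPKM in imiquimod cords and 1.94, 1.6 and 2.06 FPKM in vehicle cords (limma adjusted p = 0.182). Of the genes just short of the threshold, which were chosen after their values were seen, Mrpl47, the counterpart of bacterial L29, had a log2 change of 0.35 ± 0.10 (limma adjusted p = 0.0562). Mrpl30, the counterpart of bacterial L30, had one of 0.31 ± 0.09 (limma adjusted p = 0.0562). Both had groups that did not overlap, at 5.78, 5.74 and 4.90 FPKM in imiquimod cords and 4.33, 3.97 and 4.54 FPKM in vehicle cords for Mrpl47.

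Of the 29 Mrps genes 1 was higher (3.45%, against 8.74% of all genes). The median log2 change of the 29 was 0.11, or 0.05 without imiquimod replicate 1. Mrps18c (chr5:100798627-100804471, plus strand), one of the mammalian paralogs of bacterial S18, stood at 17.3, 14 and 13.2 FPKM in imiquimod cords and at 9.61, 9.41 and 11.8 FPKM in vehicle cords. The groups did not overlap, but the lowest imiquimod mouse and the highest vehicle mouse were close. Its log2 change was 0.52 ± 0.13 (limma adjusted p = 0.0426), kept in 7 of 17 settings. Leaving out an imiquimod replicate gave a limma adjusted p of 0.0819 (replicate 1), 0.0545 (replicate 2) or 0.0594 (replicate 3), and leaving out vehicle replicate 1 or 2 gave 0.146 or 0.134. It was 0.0778 with no filter on low values, 0.0701 with each library centred on its median and 0.0538 with sample quality weights. Of its exon bases 23.2% are shared with Gm43511 on the same strand, which stood at 0.0633 to 0.130 FPKM in imiquimod cords and 0.0501 to 0.200 FPKM in vehicle cords.

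The paralogs Mrps18a and Mrps18b had positive changes that did not pass. Mrps18a had a log2 change of 0.19 ± 0.09 (limma adjusted p = 0.221) and Mrps18b one of 0.17 ± 0.12 (limma adjusted p = 0.364), each with overlapping groups. Among 14 small-subunit proteins with a bacterial counterpart and 10 without one, none passed in either direction with limma or with voom. At an unadjusted limma p under 0.05, 2 of each class were higher (14.3% and 20%, against 16.3% of all genes). The closest, chosen after their values were seen, were Mrps34, which binds the rRNA of the small subunit (0.32 ± 0.09, limma adjusted p = 0.0587), and Mrps11, the counterpart of bacterial S11 (0.24 ± 0.08, limma adjusted p = 0.0797). Of the exon bases of Mrps34, 77.8% are shared with other genes.

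On the lower side, Mrps36 stood at 25.4, 23.1 and 20.1 FPKM in imiquimod cords and at 27.8, 25.5 and 25.5 FPKM in vehicle cords, with a log2 change of -0.21 ± 0.09 (limma adjusted p = 0.195). Its product is now known as a subunit of the 2-oxoglutarate dehydrogenase complex and not as a ribosomal protein. Mrpl36, the counterpart of bacterial L36, had a log2 change of -0.18 ± 0.08 (limma adjusted p = 0.194) and passed as lower once the trend on length and GC content was removed (-0.22, limma adjusted p = 0.0457). Both were chosen after their values were seen.

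Levels differed widely among the ribosomal genes. On the per-length FPKM scale, the median Mrpl or Mrps gene stood at 14.7 FPKM in imiquimod cords and 13.3 FPKM in vehicle cords. By the mean over all 6 libraries, the highest level was that of Mrps21, the counterpart of bacterial S21, at 76.0, 60.2 and 58.9 FPKM in imiquimod cords and 73.9, 76.5 and 70.0 FPKM in vehicle cords. In imiquimod cords Mrpl27, which passed as higher, averaged 68.9 FPKM against 65.0 FPKM for Mrps21, while in vehicle cords it averaged 48.6 FPKM, below Mrps21 (73.5), Mrpl41 (57.3) and Mrpl34 (56.6). The change of Mrps21 was -0.18 ± 0.11 (limma adjusted p = 0.290), with overlapping groups, but -0.30 (limma adjusted p = 0.0371) without imiquimod replicate 1. The lowest levels above the filter were those of Mrpl33, the counterpart of bacterial L33, at 2.23, 2.02 and 2.20 FPKM in imiquimod cords and 1.96, 1.70 and 2.27 FPKM in vehicle cords, and of Mrps30. Mrpl53, a large-subunit protein with no bacterial counterpart, had no fragment in any library, and 88.0% of its exon bases are shared with Gm42688 on the same strand, so its level cannot be read from these values.

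Among the 6 genes grouped under transcription of mtDNA and its activation, none passed by limma or by voom. Tfb1m alone, on the lower side, had an unadjusted limma p under 0.05. It was counted in this group, although it acts on rRNA, as given below. Tfam, which packages mtDNA and starts its transcription, stood at 10.2, 10.1 and 9.73 FPKM in imiquimod cords and at 10.01, 9.20 and 9.82 FPKM in vehicle cords. The groups overlapped, with a log2 change of 0.05 (95% interval -0.10 to 0.20) that turned to -0.01 with each library centred on its median and to -0.00227 after quantile normalization. Ppargc1a, the coactivator that drives mitochondrial biogenesis, stood at 5.82, 7.39 and 6.12 FPKM in imiquimod cords and at 7.07, 6.72 and 6.83 FPKM in vehicle cords. One imiquimod mouse was the highest and the other two the lowest, and the log2 change was -0.10 ± 0.10 (95% interval -0.33 to 0.14).

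Tfb1m, the methyltransferase that modifies the small-subunit rRNA, stood at 1.25, 1.19 and 1.2 FPKM in imiquimod cords and at 1.42, 1.77 and 1.5 FPKM in vehicle cords. The imiquimod mice all lay below the vehicle mice, but the log2 change of -0.34 ± 0.13 did not pass (limma adjusted p = 0.139, and 0.0816 to 0.370 over the 17 alternatives). Tfb2m, the factor that opens the promoter for the polymerase, had a log2 change of -0.13 ± 0.08, Polrmt one of 0.16 ± 0.09 and the transcription terminator Mterf1a one of 0.13 ± 0.20, each with overlapping groups (limma adjusted p = 0.313, 0.272 and 0.692).

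The 3 genes of mtDNA replication did not pass either, by limma, by voom or at an unadjusted limma p under 0.05. Polg, the catalytic subunit of the polymerase, stood at 4.54, 4.53 and 4.53 FPKM in imiquimod cords and at 4.21, 4.12 and 4.42 FPKM in vehicle cords. The groups did not overlap, but the difference was small, with a log2 change of 0.09 ± 0.07 (limma adjusted p = 0.410). Polg2, its accessory subunit, stood at 0.957, 0.616 and 0.949 FPKM in imiquimod cords and at 0.791, 0.819 and 0.786 FPKM in vehicle cords, with a log2 change of 0.04 (95% interval -0.46 to 0.55) whose sign turned with each library centred on its median (-0.01), after quantile normalization (-0.01) and without imiquimod replicate 1 (-0.05) or 3 (-0.05). Twnk, the helicase, stood at 3.35, 3.09 and 2.69 FPKM in imiquimod cords and at 3.39, 3.92 and 3.23 FPKM in vehicle cords, with a log2 change of -0.20 ± 0.12 (limma adjusted p = 0.294).

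A single mouse carried most of the small shift of the ribosomal genes. In 72 of the 77 Mrpl and Mrps genes tested (93.5%), imiquimod replicate 1 had the highest value of the 3 imiquimod libraries, as it did in 37.3% of all genes. It was also the highest of the 3 in 97.5% of cytosolic ribosomal protein genes and 88.0% of nuclear-encoded respiratory chain genes. In 58 of the 77 it had the highest of all 6 libraries, as it did in 4036 of all 16513 genes. The median difference of the 77 genes from their vehicle mean was 0.26, 0.04 and -0.04 on the log2 scale in imiquimod replicates 1, 2 and 3 and 0.03, -0.04 and 0.02 in vehicle replicates 1, 2 and 3. Their summed level was 1566, 1345 and 1280 FPKM in imiquimod cords and 1338, 1301 and 1336 FPKM in vehicle cords. The summed level of imiquimod replicates 2 and 3 thus overlapped that of the vehicle mice.

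Without imiquimod replicate 1 the median log2 change of the 89 members was -0.01, beside 0.06 with it. It was 0.11 without imiquimod replicate 3 and 0.04 without vehicle replicate 2. The calls without imiquimod replicate 1 were 3 higher (Mrpl27, Pnpt1 and Slirp) and 1 lower (Mrps21), beside 923 higher and 629 lower over all genes. The within-group SD of the log2 values had a median of 0.151 in imiquimod cords and 0.077 in vehicle cords over the members, and of 0.157 in imiquimod cords and 0.0952 in vehicle cords over all genes tested. The proteins of the cytosolic ribosome showed the same mouse high, with median log2 differences from the vehicle mean of 0.44, 0.05 and 0.07 in imiquimod replicates 1, 2 and 3. Of these cytosolic genes 4 of 80 were higher (5%, against 8.74% of all genes) and none lower (against 5.34%). By voom 5 were higher and 0 lower, and at an unadjusted limma p under 0.05 13 and 0. The median change of the 80 was 0.18, or 0.06 without imiquimod replicate 1.

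Of 83 nuclear-encoded respiratory chain genes tested, 1 was higher (1.2%, against 8.74% of all genes) and 2 were lower (2.41%, against 5.34%). Their median log2 change was -0.10. That median was -0.17 without imiquimod replicate 1 and -0.02 without imiquimod replicate 3. In imiquimod replicates 1, 2 and 3 their median differences from the vehicle mean were 0.09, -0.10 and -0.27. The deviations of imiquimod replicate 1 from the gene means fell with exon length, by 0.03 on the log2 scale for each doubling, while the slopes of the other 5 libraries ran from -0.00448 to 0.0113. The median Mrpl or Mrps gene has 2533 exon bases, against 3824 over all genes tested. With the length and GC trend removed the members' median log2 change was 0.05, with 7 higher and 1 lower, and the part of this trend in the result of imiquimod replicate 1 was not tested further.

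**Figure D3:**
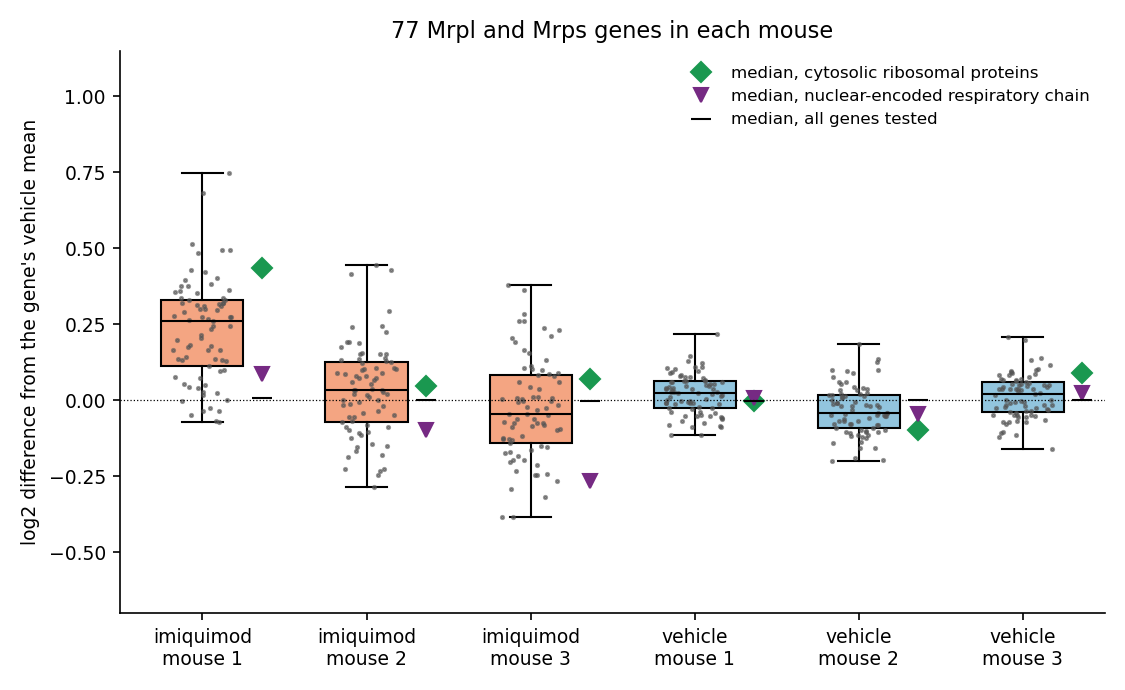
Difference of each of the 77 Mrpl and Mrps genes from its vehicle mean (log2 of FPKM + 0.1, points) in each mouse, with boxes for the quartiles and median and whiskers to the lowest and highest gene, beside the medians of cytosolic ribosomal proteins, nuclear-encoded respiratory chain genes and all genes tested. The box of imiquimod mouse 1 has its median at 0.26, and the other 5 medians lie between -0.04 and 0.04.

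Among the RNAs that this machinery makes and uses, 5 of the 13 mRNAs passed as lower after imiquimod, against 5.34% of all genes. By voom 9 were lower, and at an unadjusted limma p under 0.05 11 were. The 13 mtDNA-encoded mRNAs summed to 25060, 25420 and 20250 FPKM in imiquimod cords and to 37920, 34750 and 39980 FPKM in vehicle cords, without overlap of the groups. Of the 4 most abundant, mt-Nd2 and mt-Cytb, subunits of complexes I and III, passed with log2 changes of -0.66 ± 0.16 (limma adjusted p = 0.0391) and -0.91 ± 0.16 (limma adjusted p = 0.0134). The call of mt-Cytb was lost without vehicle replicate 1, 2 or 3 (limma adjusted p = 0.0759, 0.0622 and 0.0668), with no filter on low values (limma adjusted p = 0.345) and after quantile normalization (-0.26, limma adjusted p = 0.224). The call of mt-Nd2 was lost when any library but imiquimod replicate 3 was left out (limma adjusted p = 0.0519 to 0.154), with no filter (limma adjusted p = 0.400), with a pseudocount of 0.01 (limma adjusted p = 0.0596), with each library centred on its median (limma adjusted p = 0.056) and after quantile normalization (-0.21, limma adjusted p = 0.192). Both calls were also lost with the replicate number as a block, with or without the length and GC trend removed. The call of mt-Cytb was kept in 10 and that of mt-Nd2 in 6 of 17 alternative settings. The others of the 4, mt-Co1 and mt-Nd1, had changes of -0.57 ± 0.19 and -0.56 ± 0.17 that did not pass (limma adjusted p = 0.0966 and 0.0695). By voom both passed as lower (adjusted p = 0.0101 each), and mt-Nd1 also passed with a mean of at least 1 FPKM required (limma adjusted p = 0.0472), with the length and GC trend removed (0.0435) and with sample quality weights (0.045).

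The rRNAs of the mitochondrial ribosome did not pass in either direction in the main test, where mt-Rnr1 was higher at an unadjusted limma p under 0.05. In 3 of 17 alternative settings mt-Rnr1 passed as higher: by voom, after quantile normalization and with the length and GC trend removed. After quantile normalization alone, mt-Rnr2 also passed as higher (limma adjusted p = 0.0289). The small-subunit rRNA, mt-Rnr1 or 12S, stood at 4254, 2760 and 2738 FPKM in imiquimod cords and at 2088, 1859 and 2135 FPKM in vehicle cords. The groups did not overlap, with a log2 change of 0.65 ± 0.20 that did not pass (limma adjusted p = 0.0735). The large-subunit rRNA, mt-Rnr2 or 16S, stood at 2509, 2113 and 1763 FPKM in imiquimod cords and at 2064, 1756 and 2159 FPKM in vehicle cords, with overlapping groups and a log2 change of 0.09 ± 0.17 (limma adjusted p = 0.766).

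Both rRNAs come from the start of one primary transcript, so their ratio within a library was also taken, a measure chosen after the values were seen. The ratio of 12S to 16S was 1.70, 1.31 and 1.55 in imiquimod cords and 1.01, 1.06 and 0.989 in vehicle cords. It averaged 1.52 ± 0.197 in imiquimod cords and 1.02 ± 0.0357 in vehicle cords (SD, n = 3 each; p = 0.1 by an exact two-sided permutation test, which cannot go lower with these groups). Set against the summed mRNAs, 12S stood at 0.170, 0.109 and 0.135 in imiquimod cords and at 0.0551, 0.0535 and 0.0534 in vehicle cords, and 16S at 0.10, 0.0831 and 0.0871 in imiquimod cords and at 0.0544, 0.0505 and 0.0540 in vehicle cords. Neither ratio overlapped between the groups. Whether RNA was selected by its poly(A) tail or by removal of rRNA was not stated, and either step sets the share of rRNA fragments in a library.

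**Figure D4:**
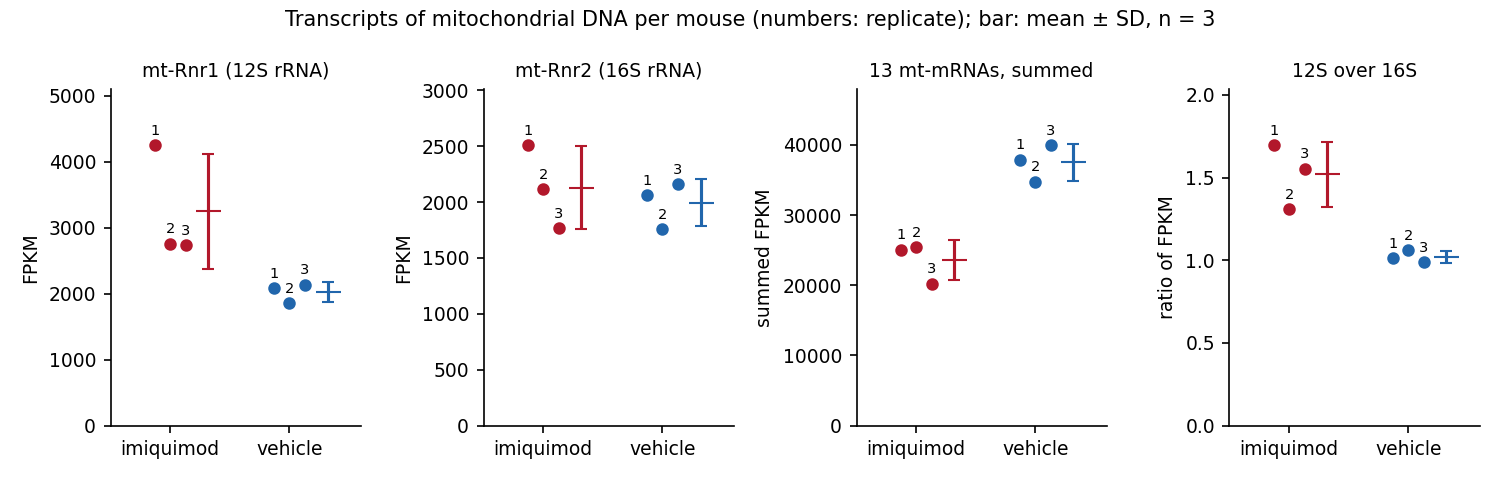
FPKM of mt-Rnr1 and mt-Rnr2, the summed FPKM of the 13 mtDNA-encoded mRNAs and the ratio of 12S to 16S in each mouse, numbered by replicate, with the group mean ± SD (n = 3). The imiquimod points lie above the vehicle points for mt-Rnr1 and the ratio, below them for the summed mRNAs, and among them for mt-Rnr2.

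Among 119 other nuclear genes of mitochondrial gene expression, 3 were higher and 3 lower in imiquimod cords, 2.52% each way, which is below the 8.74% higher and 5.34% lower among all genes. The median log2 change was 0.03, or -0.01 without imiquimod replicate 1, and by voom 3 were higher and 5 lower. The higher ones were Mrm3, which methylates the 16S rRNA (0.48 ± 0.11, limma adjusted p = 0.0292), Ddx28, a helicase of large-subunit assembly (0.37 ± 0.09, limma adjusted p = 0.0363), and Tk2, the mitochondrial thymidine kinase (0.37 ± 0.07, limma adjusted p = 0.0194). Tk2 stood at 15.2, 13.7 and 13.9 FPKM in imiquimod cords and at 11.2, 10.3 and 11.4 FPKM in vehicle cords. The lower ones were Vars2, the mitochondrial valyl-tRNA synthetase (-0.41 ± 0.10, limma adjusted p = 0.0394), Rrm2b, a subunit of the p53-inducible ribonucleotide reductase (-0.33 ± 0.08, limma adjusted p = 0.0429), and Sirt3, the main mitochondrial deacetylase (-0.28 ± 0.06, limma adjusted p = 0.0333). Sirt3 stood at 6.73, 6.95 and 6.39 FPKM in imiquimod cords and at 8.08, 8.07 and 8.19 FPKM in vehicle cords.

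In all 6 of these genes the groups did not overlap, and all 6 calls depended on single libraries. Without vehicle replicate 1, 2 or 3 the limma adjusted p of Tk2 was 0.0726, 0.0779 and 0.0558, that of Sirt3 0.123, 0.109 and 0.115, that of Rrm2b 0.115, 0.139 and 0.136, that of Vars2 0.143, 0.124 and 0.0526 and that of Ddx28 0.0875, 0.125 and 0.110. Without imiquimod replicate 1 or 3 it was 0.0543 and 0.0846 for Sirt3, 0.0842 and 0.108 for Rrm2b, 0.0832 and 0.103 for Vars2 and 0.0751 and 0.0935 for Ddx28. Mrm3 lost its call without imiquimod replicate 1 (0.0733), imiquimod replicate 2 (0.0523), vehicle replicate 1 (0.0961) or vehicle replicate 3 (0.0907), all limma adjusted p. With no filter on low values only Tk2 of the 6 kept its call.

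By list, mitoribosome assembly had 2 of 25 genes higher (8%), and the aminoacyl-tRNA synthetases 1 of 20 lower (5%). The list of mtDNA replication and nucleotide supply had 1 of 16 higher and 1 lower (6.25% each), and the nuclear regulators 1 of 16 lower (6.25%). Over all genes 8.74% were higher and 5.34% lower. No gene passed, by limma or by voom, among 13 translation factors (1 higher and 1 lower at an unadjusted limma p under 0.05), 24 genes of RNA processing and decay (4 and 0) and 5 ribosomal proteins without an Mrp symbol (0 and 0). By voom 3 synthetases passed as lower. Gabpa, the ETS-family factor also called NRF2 alpha, had a log2 change of -0.23 (limma adjusted p = 0.145), and Nrf1 one of 0.08 (limma adjusted p = 0.693). Both activate genes of mitochondrial biogenesis, and both are named here for the promoter motifs given above.

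Marker lists of several cell types had summed levels that differed between the groups beside these results. The 5 endothelial markers summed to 136, 132 and 125 FPKM in imiquimod cords and to 72.1, 69.7 and 72.3 FPKM in vehicle cords, with 3 higher and 1 lower. The 6 microglial markers summed to 147, 147 and 113 FPKM in imiquimod cords and to 86.3, 87.3 and 97.9 FPKM in vehicle cords, with 2 higher. The 8 markers of infiltrating leukocytes summed to 30.6, 19.4 and 35.6 FPKM in imiquimod cords and to 7.33, 24.4 and 9.41 FPKM in vehicle cords, with 3 of the 4 tested higher. Of the 4 below the filter, Cd3e, Cd3g and Ms4a1 stood at or under 0.196 FPKM in every library, and Cd8a stood at 0.467, 0.369 and 0.375 FPKM in imiquimod cords and at 0.109, 0.0791 and 0.0141 FPKM in vehicle cords. The 6 oligodendrocyte markers summed to 6330, 6330 and 4860 FPKM in imiquimod cords and to 8030, 7730 and 7500 FPKM in vehicle cords, and 0 of them passed in either direction by limma, while 2 were lower by voom and 2 at an unadjusted limma p under 0.05. The 9 neuronal markers summed to 1310, 1430 and 1100 FPKM in imiquimod cords and to 1600, 1610 and 1510 FPKM in vehicle cords, with 1 lower. The 7 astrocyte markers summed to 1390, 1460 and 1270 FPKM in imiquimod cords and to 1400, 1400 and 1460 FPKM in vehicle cords, with 1 higher (Aldh1l1) and 2 lower (Gja1 and Slc1a2). The part of these shifts in the changes of Pnpt1, Slirp and the ribosomal genes was not tested.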

How the data were processed

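The deposited values are FPKM per gene and library for 54532 Ensembl genes, computed by the authors. The submitters' processing notes name HISAT2 2.0.5, featureCounts 1.5.0-p3, DESeq2 1.16.1 and mm10 without their roles. The sources used here give no annotation release, strand setting or rule for multi-mapping reads. Symbols, exon lengths and overlaps came from a names table and GENCODE release M21, which held 54409 identifiers. FPKM times exon length gave whole fragments, within 0.05 fragments, for 97.4% to 97.6% of values under 1000 fragments. The depth that these steps give tracked median-of-ratios size factors: over the libraries, the SD of their ratio was 0.00601% of its mean. No further scaling was therefore applied. Counts recovered in this way served as an alternative with voom, and the depth they show is given with the results.

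The main test was limma 3.58.1 in R 4.3.3 with trend = TRUE on log2(FPKM + 0.1), a scale that understates the change of low genes, for genes with a mean of at least 0.5 FPKM in either group. All 6 libraries entered, p was adjusted by Benjamini-Hochberg over all 16513 genes, and the threshold was 0.05. On 5 simulated sets of 16115 genes, 200 of them changed, the test recovered 85.0% of genes changed by 1 on the log2 scale. It recovered 94.5% of those changed by 2, and 5.94% of calls were false. Every gene and both groups had the same dispersion (0.00481) in these sets, and no library stood apart. These rates therefore do not carry over to the calls given here, and no member changed by as much as 1. The other steps used Python 3.11.15 with pandas 2.3.3, NumPy 2.4.6 and matplotlib 3.10.9.

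Members, lists and tests were chosen with earlier results of these data known. Named are all 12 members outside Mrpl and Mrps, up to 8 Mrpl or Mrps genes per direction that passed, the 2 highest and 2 lowest by level, those that failed the filter, up to 3 passing genes per direction in each companion list, both rRNAs and the 4 most abundant mitochondrial mRNAs. Genes named beyond this rule are paralogs, genes that share exons, motif-binding factors, genes whose groups do not overlap, or are marked as chosen after their values were seen. Of the companion genes, Prorp and Mtres1 were matched by RefSeq synonyms, and Mtrfr is not reported. Promoter sequences are RefSeq's on GRCm38.p6.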

Additional observations from a re-analysis of the deposited data

How the results depend on the processing

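The 17 alternatives changed the pseudocount (0.01 or 1), the filter, the scaling (centring each library on its median, quantile normalization, removal of the trend on length and GC content), the model (voom, sample quality weights, a replicate block) or left out 1 library. The count of higher members was 3 with no filter, 3 with centred libraries, 3 with the replicate block, 3 with the replicate block and the length and GC trend removed, and 1 to 7 with 1 library left out. The count of lower members was 1 with the length and GC trend removed and 0 to 1 with 1 library left out. Over all genes the lower calls were 508 with no filter. With the replicate block, 894 genes were higher and 436 lower. Without 1 library the higher calls were 660 to 1690 and the lower calls 187 to 1296. Of the other nuclear genes of mitochondrial gene expression, 1 was higher with no filter, 1 with centred libraries and 1 with the replicate block and the length and GC trend removed, and 0 to 3 with 1 library left out. Lower among them were 0 with no filter, 6 with centred libraries, 7 after quantile normalization, 5 with the length and GC trend removed, 5 with voom, 1 with the replicate block, and 0 to 6 with 1 library left out. The cause was not tested, but without 1 library fewer samples enter.

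Changes near 0 turned sign: Tfam was -0.00512 with centred libraries and -0.00227 after quantile normalization. Polg2 was -0.00852 and -0.00639 in these settings and -0.0524 to 0.229 with 1 library left out. Lrpprc was -0.0374 and -0.0342, and -0.0416 to 0.0688 with 1 library left out, and mt-Rnr2 was -0.0406 to 0.214 with 1 library left out. The replicate numbers did not pair the samples: the correlations of deviations from the group means were 0.0186, -0.097 and -0.0331 for numbers 1, 2 and 3, and not every sample correlated best with its own number. Depth limits Slirp, with 55 to 152 fragments per library, and Polg2 and Mterf1a, under 1 FPKM. Leaving out vehicle replicate 1, 2 or 3 left 1, 2 and 3 of the 6 member calls. Over all genes 660, 770 and 758 were higher in these settings, against 1444 in the main test.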
